A study of Homo sapiens with 4 samples.

Results

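Amino acid transporters are the membrane proteins that set which amino acids a cell takes up, gives off or exchanges. The 36 genes described here are listed members of the solute carrier (SLC) families SLC1, SLC3, SLC6, SLC7, SLC36, SLC38 and SLC43, chosen by symbol. No measured value entered the rule, but the list was chosen with earlier results of these data known. All 36 were found among the 60683 gene identifiers of the count tables. Of these, 28 passed the filter on low counts, together with 14470 genes in all, and 8 did not.

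The study sequenced polyadenylated RNA from HCT116, a long-established line of human colorectal carcinoma cells, to follow how transcription differs when FOXD2, a forkhead transcription factor, is supplied. Every library came from cells stably infected with a pSin lentivirus and kept under puromycin at 5 μg per ml, so both groups share the vector and the selection. In the 2 empty vector libraries the virus carried no insert, and in the 2 FOXD2 libraries it held the whole FOXD2 coding sequence. The promoter that drives the insert is not given in the sources used here. The labels number the libraries 1 and 2 in each group but do not say whether these came from separate cultures or infections, and the spread that p-values measure here may therefore be technical.

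Several transport systems are represented. The heavy chains SLC3A1 and SLC3A2 (CD98hc, or 4F2hc) do not transport by themselves. They carry a light chain of the SLC7 family to the cell surface, and the pair exchanges an amino acid inside the cell for another outside. SLC7A5 (LAT1) with SLC3A2 brings in large neutral amino acids such as leucine, and SLC7A11 (xCT) with SLC3A2 brings in cystine in exchange for glutamate. Sodium-coupled carriers such as SLC1A5 (ASCT2) and the system A carriers SLC38A1 and SLC38A2 move small neutral amino acids, glutamine among them. Colorectal and other proliferating tumour cells are known for high SLC7A5 and SLC1A5. When amino acids are scarce, the transcription factor ATF4 is known to raise many of these genes through C/EBP-ATF response elements.

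The libraries held between 14231338 and 15535817 counts in genes, and a gene with 0 counts may still have held up to 3 counts, which is 0.193 to 0.215 CPM (counts relative to library size, scaled by TMM factors). FOXD2 was measured at 3.50 and 2.78 CPM with the empty vector and at 526 and 479 CPM with FOXD2 (a log2 fold change of 7.32 with an SE of 0.10, edgeR adjusted p = 6.53e-50). These counts pool the delivered and the cells' own transcript. The 9 colon epithelial markers summed to 3532 and 3658 CPM with the empty vector and to 6430.2 and 6114 CPM with FOXD2. EPCAM, CDH1, KRT8 and KRT18 were present in every library and higher with FOXD2, CDX2 was lower (log2 fold change −0.51), and KRT20 did not pass (−0.97). CDX1 had no count, and VIL1 and LGR5 had at most 7 counts in a group. The 7 fibroblast markers summed to between 9.51 and 11.2 CPM with the empty vector and to between 32.2 and 33.4 CPM with FOXD2, of which COL1A1 made nearly all; COL1A2, DCN, LUM and THY1 were at 0. The 7 blood and endothelial markers summed to 5.22 to 5.76 and 37.8 to 44.9 CPM, mostly CD68. PTPRC, CD3E and HBB were at 0, and HBA2 had 0 and 0 against 18 and 23 counts. The 5 markers of HEK293T-like packaging cells summed to 69.4 to 71.9 and 88.4 to 98.4 CPM. Of these, VGF (log2 fold change 1.16) and PAX2 (0.42) were higher with FOXD2, ZIC2 (−0.57) was lower, and NEFL and NEFM were at 0. Mitochondrial mRNAs made 6.79% and 6.80% of counts with the empty vector and 8.17% and 8.62% with FOXD2. The part of these shifts in the results below was not tested.

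Matches to the C/EBP-ATF response element, TGATGNAAN, were looked for on both strands in the RefSeq promoter windows (GRCh38.p14, 250 bases before to 50 bases after each annotated start). A window was found for 28 of the 36 genes, and 6 of them held a match in 1 or more of their windows. These stretches are shown because their genes belong to the SLC1, SLC3, SLC7 and SLC38 families that the results below turn on. Capitals mark the match, with up to 10 bases on each side, on the strand of the gene. In SLC1A4 and SLC3A2 the match lies on the opposite strand, so the capitals show its reverse complement. By the bounds of GENCODE release 29, the windows shown for SLC1A4, SLC1A5, SLC3A2 and SLC38A1 belong to starts inside the gene. That of SLC1A3 belongs to a start upstream of the gene's bounds, and that of SLC7A1 to the gene's first base.
SLC1A3 (chr5:36596358-36596386, plus strand): aggaaatgacTGATGCAAAgcagggttaa
SLC1A4 (chr2:64989381-64989409, plus strand): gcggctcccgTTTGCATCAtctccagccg
SLC1A5 (chr19:46784893-46784921, minus strand): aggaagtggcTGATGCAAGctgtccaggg
SLC3A2 (chr11:62881725-62881748, plus strand): tgcaggactcCTTACATCAgctcc
SLC7A1 (chr13:29595663-29595691, minus strand): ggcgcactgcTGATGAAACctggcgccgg
SLC38A1 (chr12:46266502-46266530, minus strand): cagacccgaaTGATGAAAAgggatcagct

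The first comparison was of the number of transporter genes that differed between FOXD2 and empty vector cells. With FOXD2, 9 of the 28 tested transporters were higher and 11 were lower (edgeR adjusted p under 0.05 over all tested genes), and 8 did not pass the test. The same test called 27.2% of all tested genes higher and 26.4% lower, which is also the background of the family counts below. The share of transporters called higher (32.1%) was thus near the background and the share called lower (39.3%) was above it. At least 2-fold differences were found for SLC6A9 and SLC38A3, both higher, and for SLC7A5 and SLC1A4, both lower, beside 8.2% of all tested genes at least 2-fold higher and 2.8% at least 2-fold lower. The median log2 fold change was −0.14 over the 28 transporters, from −1.60 for SLC7A5 to 2.02 for SLC6A9, and 0.01 over all tested genes. The 2 FOXD2 libraries both lay below both empty vector libraries for 15 transporters and both above for 9, so 85.7% of the tested transporters did not overlap between groups, beside 76.1% of all tested genes. In bulk RNA of this kind, fewer cells that express a gene and less RNA per cell cannot be told apart.

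**Figure D1:**
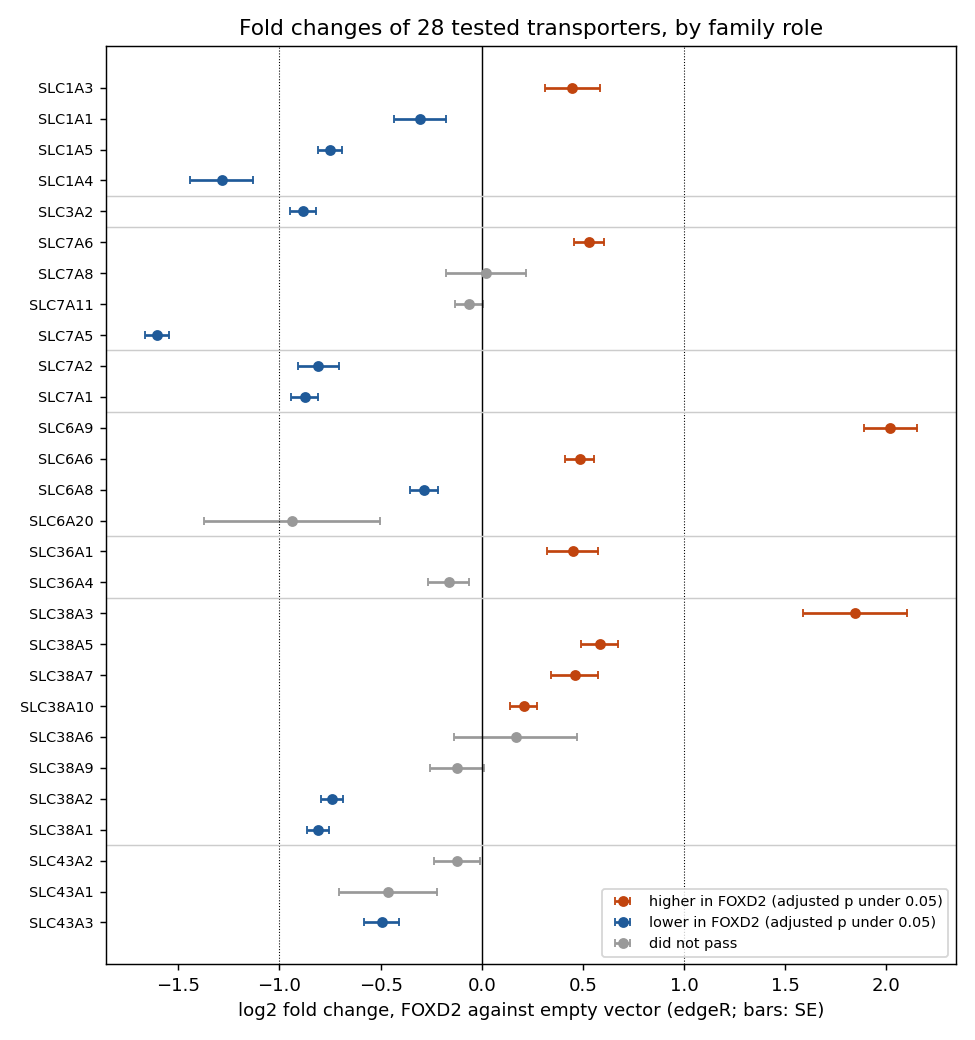
Fitted log2 fold change of FOXD2 against empty vector for the 28 tested transporters, grouped by family or role; the bars are 1 standard error, dotted lines mark a 2-fold difference, and colour marks genes called higher, called lower or not past the test. SLC6A9 (2.02) and SLC38A3 lie farthest to the right and SLC7A5 (−1.60) and SLC1A4 farthest to the left.

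Levels of different genes were compared by the authors' TPM (a level per transcript length, scaled to the same total in every library). The 36 transporters summed to 1416 and 1447 TPM with the empty vector and to 953 and 943 TPM with FOXD2, a ratio of means of 0.66, described without a test. A few genes made most of this sum. SLC7A5, SLC3A2 and SLC38A2, in that order, headed the empty vector cells and together made 58.3% and 58.5% of it. SLC3A2, SLC38A2 and SLC7A5 headed the FOXD2 cells, and the leading 3 there made 44.8% and 42.0%. SLC7A5 moved from the first to the third place, from 24.1% ± 1.06 to 12.3% ± 0.791 of the sum (SD, n = 2 each). SLC38A5 moved from the seventh to the fifth place, and its mean level rose from 50.9 to 85.4 TPM. The remaining abundant member, SLC1A5, was the fourth in both groups.

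The direction of the calls went with the level. All 4 transporters with a mean of at least 100 TPM (SLC7A5, SLC3A2, SLC38A2 and SLC1A5) were lower with FOXD2, with a median log2 fold change of −0.82. Among all tested genes at that level 57.0% were lower and 17.4% higher, with a median of −0.20. Of the 11 transporters between 10 and 100 TPM, 4 were higher and 4 lower, beside 27.8% and 31.3% of all genes at that level. Of the 13 under 10 TPM, 5 were higher and 3 lower, beside 28.4% and 14.5% of all genes. The bounds of these bands were chosen after the values were seen.

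**Figure D2:**
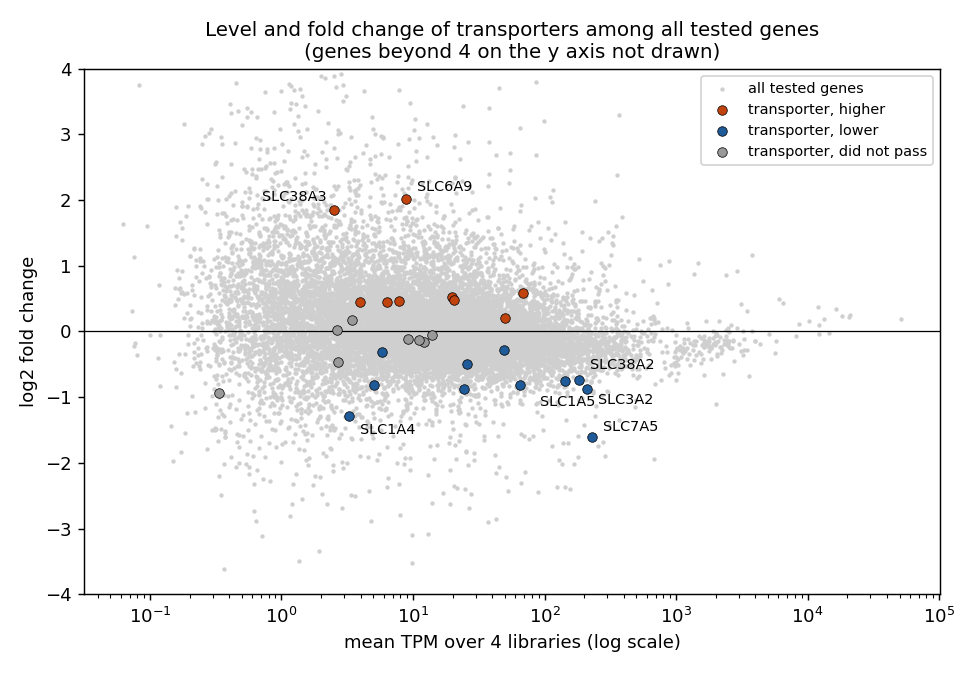
Mean TPM over the 4 libraries (log scale) against the fitted log2 fold change of FOXD2 against empty vector; small grey points are all tested genes, large points the 28 transporters coloured by call. The 4 transporters above 100 TPM all lie below 0, and the 2 highest points, SLC6A9 and SLC38A3, lie under 10 TPM.

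The heavy chain SLC3A2 and its main partner fell together. SLC7A5 (ENSG00000103257, chromosome 16, 87830023 to 87869488, minus strand, GRCh38) was measured at 1074 and 1188 CPM with the empty vector and at 393 and 351 CPM with FOXD2. The groups were far apart (log2 fold change −1.60, SE 0.06, edgeR adjusted p = 1.65e-23). RSEM's own uncertainty from shared reads was at most 0.020% of its count. SLC3A2 (ENSG00000168003, chromosome 11, 62856102 to 62888875, plus strand) was measured at 333 and 353 CPM and then at 201 and 170.5 CPM. This was a log2 fold change of −0.88 with an SE of 0.07 (edgeR adjusted p = 1.94e-13). Both FOXD2 libraries lay well below both empty vector libraries. The other heavy chain, SLC3A1 (rBAT, ENSG00000138079, chromosome 2, 44275458 to 44321494, plus strand), which partners SLC7A9 in kidney and intestine, had 2, 0, 1 and 0 counts in the 4 libraries and was not tested.

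The other light chains did not follow SLC7A5. SLC7A6 (y+LAT2), an exchanger of cationic for neutral amino acids, was measured at 61.9 and 65.8 CPM with the empty vector and at 91.9 and 92.7 CPM with FOXD2, and it rose by a log2 fold change of 0.53 (edgeR adjusted p = 1.75e-08). SLC7A11, the cystine carrier, was measured at 107, 104, 97.2 and 105 CPM in empty vector replicates 1 and 2 and FOXD2 replicates 1 and 2, so the groups overlapped. Its log2 fold change of −0.06 had an SE of 0.07 and did not pass the test (edgeR adjusted p = 0.47). SLC7A8 (LAT2), a second carrier of neutral amino acids, was low, at 5.44, 6.43, 5.59 and 6.49 CPM, and did not pass either (log2 fold change 0.02, SE 0.20). SLC7A7 (y+LAT1) and SLC7A9 had too few counts to test.

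Set per length, the make-up of the light chains therefore differed between the groups. The 5 light chains of SLC3A2 among the 36 genes summed to 363 and 391 TPM with the empty vector and to 162 and 154 TPM with FOXD2. SLC7A5 made 91.2% and 91.9% of that sum with the empty vector but 75.4% and 72.0% with FOXD2. The share of SLC7A6 went from 4.16% and 3.79% to 15.1% and 16.1%, and that of SLC7A11 from 3.98% and 3.50% to 8.12% and 9.61%. In both cases the 2 FOXD2 libraries lay above both empty vector libraries, although the level of SLC7A11 itself did not pass the test. The ratio of SLC3A2 to its light chains was 0.72 and 0.69 with the empty vector and 1.03 and 0.92 with FOXD2. Shares and ratios of this kind were described without a test and speak of mRNA, not of protein pairs.

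**Figure D3:**
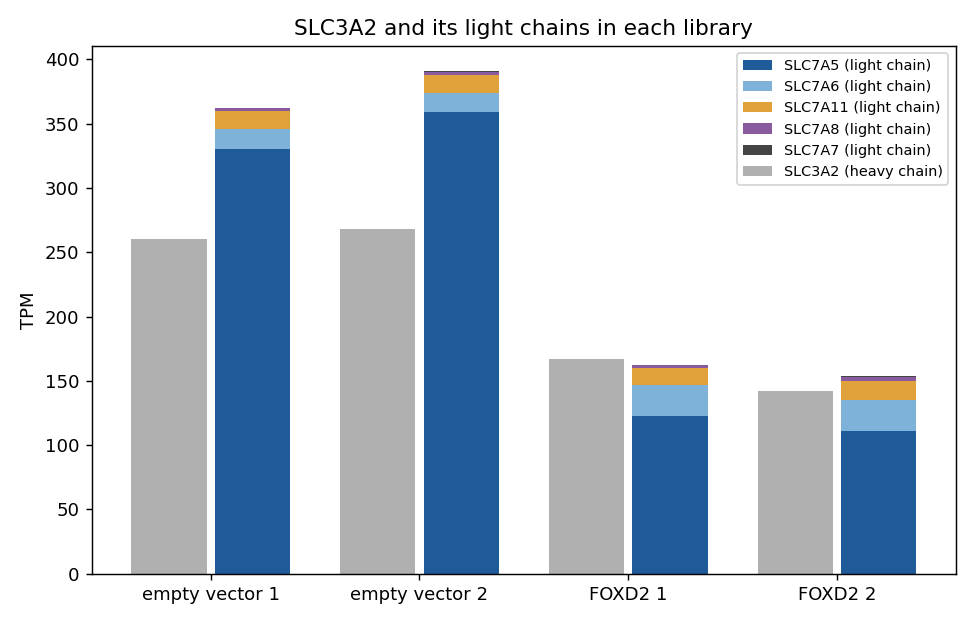
TPM of SLC3A2 and of its light chains in each of the 4 libraries, as bars from 0 stacked by light chain. SLC7A5 makes over 90% of the light chain TPM in the empty vector libraries and 72.0% to 75.4% in the FOXD2 libraries, and the SLC3A2 bars fall less than the light chain bars.

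In the SLC1 family, whose members carry acidic or small neutral amino acids, 3 of the 4 tested genes were lower with FOXD2 and 1 was higher. SLC1A5, the glutamine and neutral amino acid carrier, was measured at 327 and 339.5 CPM and then at 206 and 190 CPM, a log2 fold change of −0.75 (edgeR adjusted p = 2.74e-16). Its relative SLC1A4 (ASCT1, ENSG00000115902, chromosome 2, 64988477 to 65023865, plus strand), a carrier of serine, alanine and threonine, was measured at 14.3 and 16.4 CPM and then at 6.04 and 6.56 CPM. It fell by 1.29 on the log2 scale (SE 0.15, edgeR adjusted p = 3.85e-10), and both FOXD2 libraries lay far below both empty vector libraries. Per length, SLC1A5 was 40.3 and 36.4 times as abundant as SLC1A4 with the empty vector and 63.7 and 53.4 times with FOXD2.

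The calls of the glutamate and aspartate carriers of the family were less stable. SLC1A3 (EAAT1) was measured at 12.4 and 12.7 CPM with the empty vector and at 15.0 and 19.3 CPM with FOXD2, and was called higher (log2 fold change 0.45, edgeR adjusted p = 0.0042). That call rests on FOXD2 replicate 2: without it the log2 fold change was 0.26 and the edgeR adjusted p 0.16, and DESeq2 gave an adjusted p of 0.074 and limma on log2(TPM + 1) one of 0.25. SLC1A1 (EAAT3) was measured at 18.1 and 16.7 CPM and then at 13.2 and 15.0 CPM, a log2 fold change of −0.31 with an edgeR adjusted p of 0.039. This call was lost when empty vector replicate 1, empty vector replicate 2 or FOXD2 replicate 1 was dropped (edgeR adjusted p = 0.23, 0.065 and 0.20). It was also lost with upper quartile scaling (0.073), with no scaling factors (0.11), with DESeq2 (0.20) and with limma on TPM (0.24). SLC1A2 (EAAT2), the main glutamate carrier of astrocytes, had 2 and 1 counts with the empty vector and 8 and 6 with FOXD2, a ratio of 4.49 (95% interval 1.25 to 24.4, counting error only), and was not tested.

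The cationic amino acid transporters were lower. SLC7A1 (CAT1), the widely expressed carrier of arginine and lysine, was measured at 172 and 179 CPM with the empty vector and at 98.2 and 93.0 CPM with FOXD2 (log2 fold change −0.88, edgeR adjusted p = 5.37e-17). SLC7A2 (CAT2) was measured at 38.4 and 34.8 CPM and then at 20.2 and 21.5 CPM (log2 fold change −0.81, edgeR adjusted p = 1.19e-09). These were the tested members of the group, and SLC7A3 (CAT3) had no count in any library. Their summed level fell from 37.7 and 37.2 TPM to 21.2 and 20.9 TPM, a ratio of means of 0.56 with libraries of each group close together.

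In the SLC38 family, 4 of the 8 tested genes were higher, 2 were lower and 2 did not pass. The 2 that were lower are the abundant system A carriers of small neutral amino acids. SLC38A2 (SNAT2, ENSG00000134294, chromosome 12, 46358189 to 46372867) was measured at 727 and 703 CPM with the empty vector and at 424 and 433 CPM with FOXD2, a log2 fold change of −0.74 with an SE of 0.05 (edgeR adjusted p = 1.45e-17). SLC38A1 (SNAT1), whose gene lies beside it on chromosome 12 (46183063 to 46270017), was measured at 466 and 471 CPM and then at 260 and 275 CPM (log2 fold change −0.81, edgeR adjusted p = 2.19e-18). The third system A gene, SLC38A4, is the next one of this cluster (46764761 to 46832408) and had 1 count in all, in FOXD2 replicate 2. SLC38A2 made 73.9% and 73.3% of the system A TPM with the empty vector and 74.8% and 74.0% with FOXD2, so the proportion of SLC38A1 and SLC38A2 barely differed while their sum went from 316 and 298 to 184 and 194 TPM.

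The system N carriers, which move glutamine, histidine and asparagine, were higher. SLC38A3 (SNAT3, ENSG00000188338), best known from liver, kidney and brain, had 26 counts in each empty vector library and 106 and 89 counts with FOXD2, or 1.86 and 1.72 against 6.81 and 6.08 CPM. From this low level it rose by 1.85 on the log2 scale (SE 0.26, edgeR adjusted p = 1.77e-08). In TPM the difference was wider, from 0.87 and 0.78 to 4.36 and 4.04, because RSEM's abundance-weighted transcript length was 2953 bases with the empty vector and 2204 and 2174 bases with FOXD2. SLC38A5 (SNAT5), the more abundant of the pair, was measured at 48.9 and 63.5 CPM and then at 84.2 and 84.5 CPM (log2 fold change 0.58, edgeR adjusted p = 6.59e-06). Its empty vector libraries differed more from each other than its FOXD2 libraries did, and the groups did not overlap.

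The remaining SLC38 genes differed less. SLC38A7 (SNAT7), a lysosomal glutamine exporter, was measured at 18.2 and 17.1 CPM and then at 26.5 and 21.9 CPM and was called higher (log2 fold change 0.46, edgeR adjusted p = 7.11e-04). SLC38A10 was measured at 115 and 116 CPM and then at 139 and 128 CPM (log2 fold change 0.21, edgeR adjusted p = 0.0071). This small rise was lost with empty vector replicate 1, empty vector replicate 2 or FOXD2 replicate 1 left out, at adjusted p-values of 0.097, 0.068 and 0.11. SLC38A9, the lysosomal carrier through which arginine is sensed by mTORC1, was measured at 14.9, 16.0, 12.8 and 15.6 CPM (log2 fold change −0.12, SE 0.13), with overlapping groups. SLC38A6 was near 2 CPM, at 2.50, 2.05, 2.31 and 2.80, and did not pass (log2 fold change 0.17, SE 0.31).

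**Figure D4:**
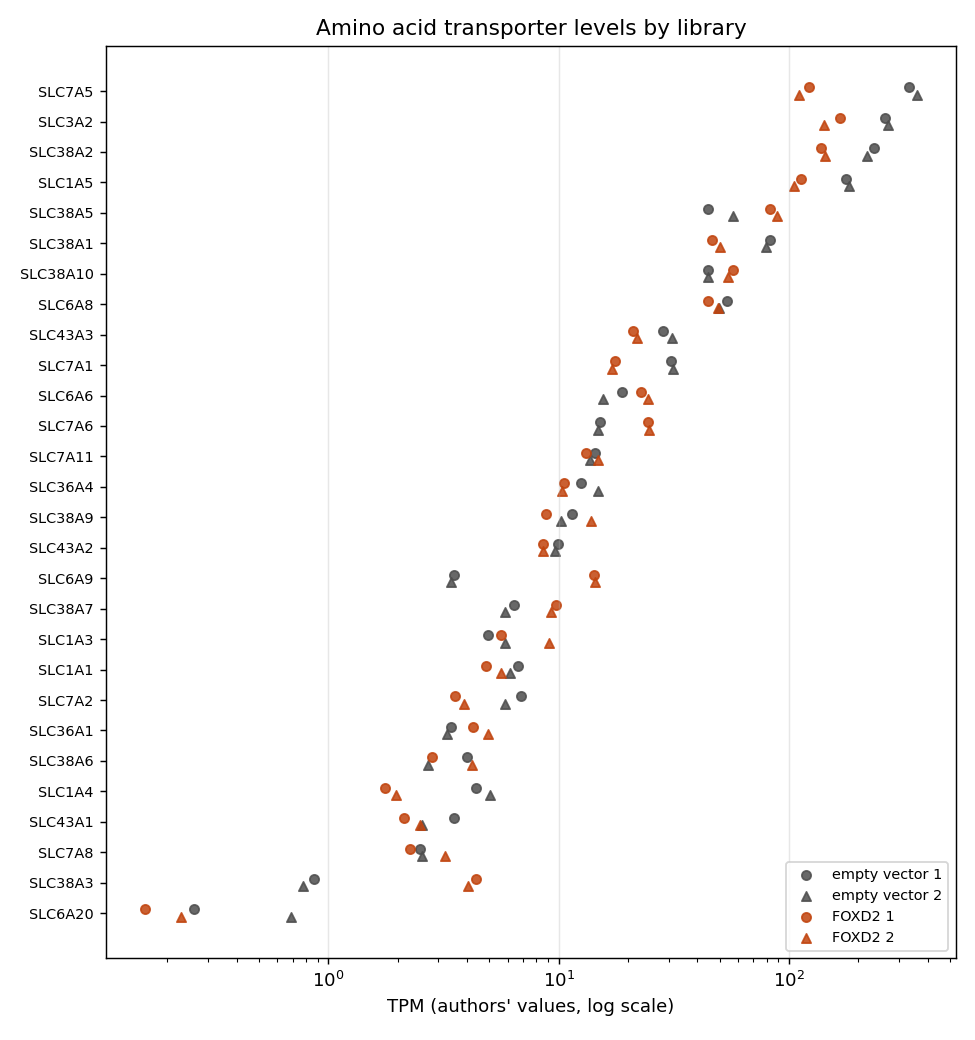
TPM (log scale) of the 28 tested transporters in each library, ordered by mean TPM; each point is 1 library, with colour for the group and shape for the replicate number. The highest points belong to SLC7A5, SLC3A2, SLC38A2 and SLC1A5, where both FOXD2 libraries lie below both empty vector libraries, whereas SLC6A9 and SLC38A3 show both FOXD2 libraries above.

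Of the SLC6 carriers, which move amino acids or related compounds with sodium and chloride, 2 were higher, 1 was lower and 1 of the 4 tested did not pass. SLC6A9 (GlyT1, ENSG00000196517, chromosome 1, 43991500 to 44031467, minus strand), the glycine carrier, was measured at 6.51 and 8.21 CPM with the empty vector and at 29.7 and 30.3 CPM with FOXD2. The rise was the largest of the tested transporters (log2 fold change 2.02, SE 0.13, edgeR adjusted p = 1.31e-19). Per length it went from 3.50 and 3.41 to 14.2 and 14.4 TPM, from the place of rank 22 to rank 13 among the 36 genes. CCDC24 overlaps SLC6A9 on the other strand, with 143 and 130 counts against 176 and 167 counts with FOXD2, and the strand setting of the counting is not given in the sources used here.

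SLC6A6, the taurine carrier, was measured at 81.2 and 71.0 CPM and then at 104 and 108 CPM (log2 fold change 0.48, edgeR adjusted p = 1.34e-07). SLC6A8, the creatine carrier, was measured at 113 and 124 CPM and then at 99.4 and 95.2 CPM (log2 fold change −0.29, edgeR adjusted p = 4.10e-04). The fall of SLC6A8 was lost with empty vector replicate 2 left out (adjusted p = 0.051) and on log2(TPM + 1) with limma (adjusted p = 0.22, log2 fold change −0.14). SLC6A20, a proline carrier of intestine and kidney, had 15, 26, 10 and 12 counts and did not pass (log2 fold change −0.94, SE 0.44, edgeR adjusted p = 0.064). SLC6A14 (ATB0,+), a carrier of nearly all neutral and cationic amino acids, had no count with the empty vector and 9 and 12 counts with FOXD2. Against a floor of 3 counts over the empty vector group, the measured FOXD2 counts were 6.74-fold higher, with their own counting error left out. The gene was below the filter and was not tested in the main fit. SLC6A19 (B0AT1), of the intestinal brush border, had 1 count in all.

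None of the SLC36 carriers and the sodium-independent SLC43 carriers was called at least 2-fold different. Of the 2 tested SLC36 genes 1 was called higher, and of the 3 tested SLC43 genes 1 was called lower. SLC36A1 (PAT1), found on lysosomes and at the cell surface, was measured at 14.8 and 13.6 CPM and then at 17.8 and 21.1 CPM (log2 fold change 0.45, edgeR adjusted p = 0.0021), and did not pass without FOXD2 replicate 2 (adjusted p = 0.052) or with limma on log2(TPM + 1) or log2(TPM + 0.1) (adjusted p = 0.12 and 0.13). SLC36A4 (PAT4) was measured at 30.97, 29.5, 25.8 and 28.2 CPM and did not pass (log2 fold change −0.16, SE 0.10). Of the SLC43 genes only SLC43A3, which is known as a purine nucleobase carrier and not as an amino acid carrier, passed the test. It was measured at 46.5 and 51.7 CPM and then at 35.4 and 34.4 CPM (log2 fold change −0.49, edgeR adjusted p = 3.54e-06). SLC43A1 (LAT3) and SLC43A2 (LAT4), carriers of branched-chain and other large neutral amino acids, did not pass, with log2 fold changes of −0.46 (SE 0.24) and −0.12 (SE 0.11). SLC43A1 was measured at 5.44, 4.17, 3.47 and 3.48 CPM, and SLC43A2 at 21.5, 21.5, 20.2 and 19.4 CPM.

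The 8 untested genes were SLC1A2, SLC3A1, SLC6A14, SLC6A19, SLC7A3, SLC7A7, SLC7A9 and SLC38A4. SLC7A7 had 0, 2, 0 and 2 counts and SLC7A9 had 6, 1, 2 and 4. Apart from SLC6A14 and SLC1A2, none held over 7 counts in a group. Most of these are carriers of the intestinal or renal brush border, of brain or of liver.

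Promoter letters were then set beside these values as a description. A match to TGATGNAAN was found in 21.4% of the 28 transporter genes with a window, beside 4.45% of the 27305 genes in the RefSeq table. Counted by window it was 6 of 49, or 12.2%, beside 3.61%. Of the 6 genes whose stretches are shown above, SLC1A4, SLC1A5, SLC3A2, SLC7A1 and SLC38A1 were lower with FOXD2 and SLC1A3 was called higher. Of the other lower genes, SLC1A1, SLC6A8, SLC7A5 and SLC38A2 hold no match within their windows, and SLC7A2 and SLC43A3 had no window. Of the other higher genes, SLC6A6 and SLC38A3 had no window, and the rest hold no match. SLC7A11, which did not pass the test, and the untested SLC1A2, SLC3A1 and SLC7A3 had no window either. For all these genes without a window, no motif could be looked for.

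The motif bound by forkhead factors, TGTTTAC, was found in the windows of 2 of the 28 genes (7.14%), beside 4.19% of all genes, and by window in 4.08% beside 3.42%, a share near the background. Both stretches are printed because FOXD2 is itself a forkhead factor. Both matches lie on the strand opposite to the gene, so the capitals show the reverse complement. Both windows belong to starts inside the gene by the bounds of GENCODE release 29.
SLC1A5 (chr19:46785025-46785051, minus strand): gggtagccttGTAAACAcagatgcata
SLC43A1 (chr11:57514917-57514943, minus strand): cctccctttgGTAAACAcacccgcccg
SLC1A5 was lower with FOXD2, and SLC43A1 did not pass the test. The E-box CACGTG, read by MYC and MITF family factors among others, was found for 8 genes (28.6%, beside 8.77% of all genes), which were SLC1A5, SLC7A5, SLC7A7, SLC7A8, SLC36A1, SLC38A5, SLC38A7 and SLC43A1. TGACNNNGC, the antioxidant response element, was found for 7 genes (25.0%, beside 16.1%). By window, the E-box share was 16.3% beside 7.26%, and that of TGACNNNGC was 14.3% beside 13.3%, near the background. The transporters have more windows per gene (49 for 28 genes) than all genes do (35116 for 27305). A match of this kind is not a binding site, and binding was not measured in these libraries.

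Genes that use, sense or help to regulate amino acids were counted from lists chosen by function. In the list of ATF4 and amino acid synthesis genes, 19 of 29 tested were lower and 2 were higher, with a median log2 fold change of −0.53. The count of higher genes was 1 without empty vector replicate 1, empty vector replicate 2 or FOXD2 replicate 2. ATF4 itself went from 418 ± 38.3 to 289 ± 15.6 CPM (SD, n = 2 each) and was lower at a log2 fold change of −0.53 (edgeR adjusted p = 4.67e-10). The genes of this list that fell most were PHGDH (−2.45), which opens serine synthesis, the asparagine synthetase ASNS (−1.95), the glutathione-degrading enzyme CHAC1 (−1.71) and PSAT1 (−1.70), which follows PHGDH in the same pathway. Of 16 tested genes of glutamine, glutamate and glutathione metabolism, 12 were lower and 1 was higher (2 higher without empty vector replicate 2 or FOXD2 replicate 2). These included lower TXNRD1 (−1.08), GLUD1 (−0.91) and GCLM (−0.67) and higher GGT1 (1.51), while NFE2L2 (NRF2) had a log2 fold change of −0.17 (edgeR adjusted p = 0.024). The shares of all tested genes called, 27.2% higher and 26.4% lower, stand beside these counts and those of the lists below. The share called lower depended on level, from 14.5% of genes under 10 TPM to 57.0% at 100 TPM or more. The lists were not matched to level.

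The list of mTORC1 amino acid sensing genes was mixed, with 14 of 37 higher (37.8%), 9 lower (24.3%) and a median of 0.11. Among all tested genes, 27.2% were higher and 26.4% lower. KPTN (0.83), of the KICSTOR complex, and the arginine sensor gene CASTOR2 (0.84) were higher, the sestrin SESN3 (−1.16) was lower, and MTOR did not pass (−0.04, edgeR adjusted p = 0.60). In the list of branched-chain amino acid, arginine and tryptophan use, 4 of 11 tested were higher and 5 lower, among them ARG2 (0.93), BCKDHB (0.70), ODC1 (−0.93) and WARS1 (−0.82). Without empty vector replicate 2, the lower counts of these lists were 5 and 3.

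Of 30 other plasma membrane and lysosomal carriers of amino acids or peptides, 10 were tested. Of these, 7 (70.0%) were higher and 0 lower by edgeR, beside 27.2% and 26.4% of all tested genes. At an unadjusted p under 0.05 it was 0 lower too, as it was by DESeq2 and limma. With no filter on low counts, with DESeq2 or with limma on TPM, 6 were higher. The 7 included the peptide carriers SLC15A2 (1.15) and SLC15A1 (0.93). SLC15A2 had 7 and 9 counts with the empty vector and 16 and 21 with FOXD2. It met the minimum count of 10 only in the FOXD2 libraries, so its call is not independent of the filter. The lysosomal exporters SLC66A1 (0.82), for cationic amino acids, and CTNS (0.78), for cystine, were also higher. Of 10 tested mitochondrial carriers, 6 did not pass, 2 were higher and 2 lower, each a share (20%) under that of all tested genes. Fewer were called when either empty vector library was left out. SFXN3 (1.09), SLC25A44 (0.29), a branched-chain amino acid carrier, SLC25A15 (−0.84), an ornithine carrier, and the serine carrier SFXN1 (−0.19) were the genes called.

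Of 12 tested partners and regulators of the transporters, 2 were higher and 3 lower, with 1 higher without empty vector replicate 1 or 2 and 4 higher without FOXD2 replicate 2. NEDD4L (−0.66), a ubiquitin ligase that removes several transporters from the surface, was lower, and MYC did not pass (0.11, edgeR adjusted p = 0.12). STC1, counted among the higher genes, had 2 counts with the empty vector and 182 with FOXD2, a ratio of 87.6 (95% interval 23.9 to 729). It passed the filter only through the FOXD2 libraries.

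**Figure D5:**
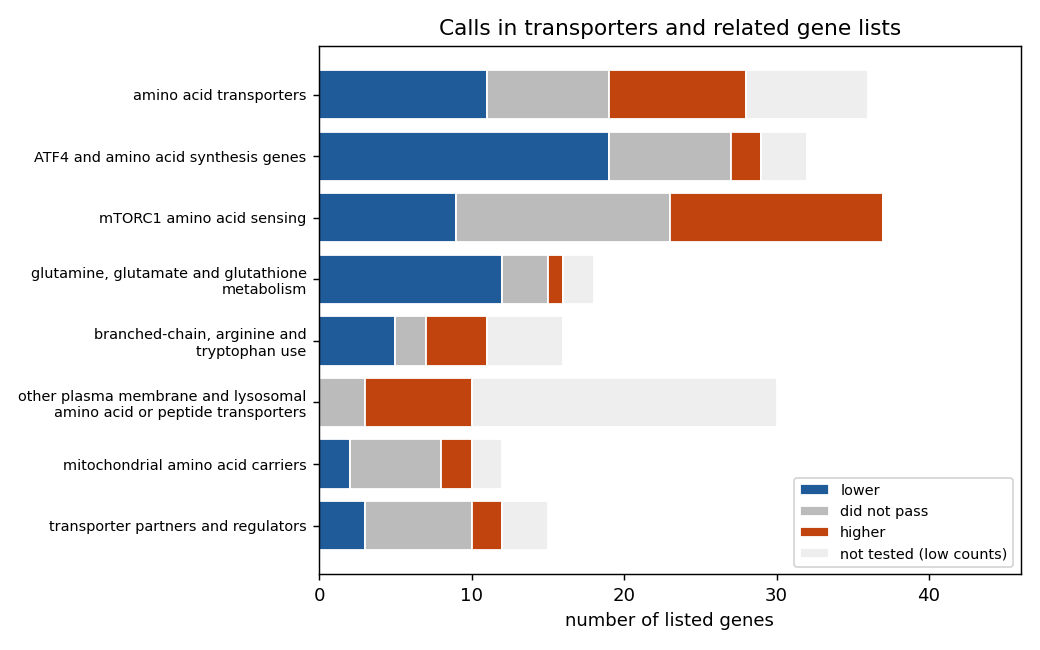
Number of genes called higher, called lower, not past the test and not tested in the transporter list and in the lists of related genes, as stacked bars from 0. The list of ATF4 and amino acid synthesis genes and that of glutamine, glutamate and glutathione metabolism hold mostly lower genes, whereas the other plasma membrane and lysosomal carriers hold 7 higher and no lower gene.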

How the data were processed

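PolyA RNA of 4 libraries was sequenced from a strand-specific kit, per the labels' protocols. Reads were aligned or counted on GRCh38 (hg38) with STAR 2.7.2b and RSEM 1.2.31, per the submitters' processing notes; annotation release and strand setting are not given in the sources used here. The authors deposited RSEM expected counts, which divide reads shared by several genes and need not be whole, with TPM, transcript lengths and the posterior SD of the count, per the file headers. Expected counts were rounded and tested with edgeR 4.0.16 in R 4.3.3 (TMM, filterByExpr with a minimum count of 10, quasi-likelihood, robust, two-sided, no covariate), and adjusted by Benjamini-Hochberg over 14470 genes at 0.05. CPM are TMM-scaled; the authors' TPM set levels between genes. The biological coefficient of variation was 4.99%. Replicates differed beyond sampling noise, with a chi-square per degree of freedom of 2.62 (empty vector) and 4.13 (FOXD2). Floors and intervals cover counting error only.

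Coordinates are of GENCODE release 29, in which 58496 of 60683 identifiers were found (60370 matched a symbol). The script was tested on simulated data. The transporters and gene lists were chosen with earlier results of these data known. Full statistics were fixed for the 3 genes highest by mean TPM, the heavy chains and genes at least 2-fold different. Of each list, up to 4 called genes with the largest change are named, with ATF4, MYC, NFE2L2 and MTOR. Some genes of these lists are not reported here by name. Alternatives were other scalings, filters and tools (DESeq2 1.42.0, limma 3.58.1), each library left out, and a replicate block.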

Additional observations from a re-analysis of the deposited data

How the results depend on the processing

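Of the 28 tested transporters, 23 kept their call under all 14 alternatives, and no called transporter changed direction. The exceptions are SLC1A1, SLC1A3, SLC6A8, SLC36A1 and SLC38A10. On log2(TPM + 1) with limma, 1 transporter and not 2 was at least 2-fold lower, since SLC1A4 stood at −0.99 there, and 2424 genes in all were lower and not 3816; with a pseudocount of 0.1 it was 2415. These fits also called 9 higher and 4 lower genes of the mTORC1 list in place of 14 and 9. With single libraries left out, 7 to 9 transporters were higher and 9 to 11 lower. DESeq2 called 8 higher and 10 lower. Scalings moved the median of all genes by at most 0.07. Same-numbered libraries did not deviate together (correlation −0.0989 over 14470 genes). With the replicate number as a block, 9 transporters were higher and 10 lower (SLC1A1 was lost, edgeR adjusted p = 0.057), and 3680 and 3494 genes in all. The 8 untested genes fell below the filter on low counts, and the main fit did not test them. With no filter, 10 transporters were higher in place of 9, and 3 were at least 2-fold higher in place of 2. All 28 kept their calls there, so the added call was of a gene below the filter.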
